A study of Mus musculus with 6 samples.

Results

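The NOTCH pathway lets neighbouring cells signal by contact. JAG and DLL ligands on one cell bind NOTCH receptors on the next, ADAM proteases and then gamma-secretase cut the receptor, and its freed intracellular part joins the DNA-binding protein RBPJ and Mastermind coactivators to switch on target genes, of which the HES and HEY repressors are the best known. Fringe enzymes add sugars to the receptor and tune which ligand it answers. In the ovary the pathway is best known from the exchange between germ cells and granulosa cells in the follicle. Here 10 core NOTCH genes were followed in mouse ovarian surface epithelial cells, the layer that covers the ovary. They were picked by symbol from the 48440 genes of the table and are the receptors Notch1, Notch2 and Notch3, the ligands Jag1 and Jag2, the Fringe gene Lfng, and the repressors Hes1, Hey1, Hey2 and Heyl. All 10 symbols were found, and 9 genes had enough counts to test. Heyl had none.

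The knockout cells had received an adenovirus for Cre recombinase and GFP (Ad-Cre-GFP, 3 libraries, genotype given as Lats1/2 knockout), and their controls an adenovirus for GFP (Ad-GFP, 3 libraries, genotype given as WT). LATS1 and LATS2 are the Hippo kinases that restrain the coactivators YAP and TAZ. All cells were taken 7 days after the virus, and poly(A) RNA was sequenced. The sources used here do not describe the Lats1/2 alleles, the animals or the share of cells that took up virus, so loss of the kinases, exposure to Cre and differences between cultures cannot be told apart.

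Library totals were 27734527 to 30304033 counts in Ad-Cre-GFP and 18690235 to 25363462 in Ad-GFP. Levels below are CPM, counts scaled to library size with TMM factors, and a gene was called at an adjusted p under 0.05. Lats1 had 38.6, 36.0 and 36.6 CPM in Ad-Cre-GFP, against 159, 151 and 168 CPM in Ad-GFP, and Lats2 had 98.8, 101 and 96.7 CPM, against 127, 131 and 131 CPM. Lats1 fell by 2.10 ± 0.04 on the log2 scale (SE) and Lats2 fell by 0.39 ± 0.03, both in the direction of the labels. Which exons were deleted is not stated, so the counts that remain do not show how complete the deletion was. All 10 listed markers of ovarian surface epithelium and mesothelium had counts, Lhx9 only 0.297 CPM in Ad-Cre-GFP and 0.623 CPM in Ad-GFP. Their summed levels were 2788 to 2824 CPM in Ad-Cre-GFP and 2817 to 2897 CPM in Ad-GFP. Most of the sum was Msln, Krt18, Upk1b, Krt8 and Krt19. The list does not separate ovarian surface epithelium from mesothelium. Of these markers 5 rose and 5 fell, among them 3 that rose at least 2-fold (Krt7, Upk3b and Msln) and 4 that fell at least 2-fold (Krt19, Gata4, Wt1 and Lhx9), with log2 changes from -1.60 for Krt19 to 1.39 for Krt7. The part of these marker changes in the changes of the NOTCH genes was not tested. Ad-GFP replicate 3 separated from its fellow controls along principal component 2, which held 3.15% of the variance. Differences between the groups were very common, with 69.8% of 14811 tested genes called, 34.0% higher and 35.8% lower, so a call by itself says little about any 1 gene.

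Of the 9 core genes tested, 5 rose (Hey2, Jag1, Notch3, Notch1 and Lfng) and 4 fell (Jag2, Hey1, Notch2 and Hes1). That is 9 of 9 called, beside 69.8% of all genes, and the 9 are those that passed the count filter, not the whole set. The calls of Notch3, Notch1 and Hes1 were lost under some settings, given with each gene. With Ad-GFP replicate 3 left out, 5 core genes were called higher and 3 lower, the lost call being Hes1. The median absolute log2 change was 0.87, against 0.35 over all genes tested. With 9 genes this median is the value of the middle gene, Notch3, which had 8 to 26 counts per library. The log2 change of Notch3 ran from 0.68 to 1.14 over the other settings. Changes of at least 2-fold were called for Hey2 (higher), Jag2 and Hey1 (lower), beside 6.25% of all tested genes higher and 7.56% lower by that measure. In all 9 genes the 3 Ad-Cre-GFP libraries did not overlap the 3 Ad-GFP libraries, which was also true of 73.0% of all genes tested. Members of the same family went in opposite directions: Jag1 rose and Jag2 fell, Hey2 rose and Hey1 fell, and Notch1 and Notch3 rose while Notch2 fell.

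**Figure D1:**
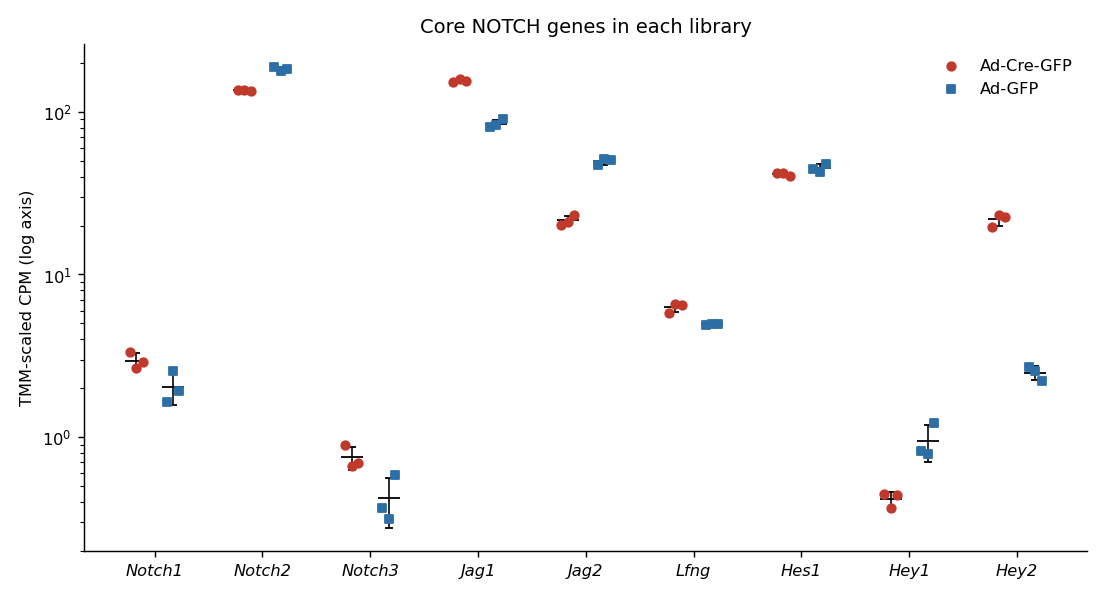
TMM-scaled CPM (log axis) of the 9 core NOTCH genes with counts, in Ad-Cre-GFP (red circles) and Ad-GFP (blue squares). Each point is 1 library, and the black bars give the mean ± SD of 3. Hey2 is separated most widely, with 19.7 to 23.1 CPM in Ad-Cre-GFP and 2.23 to 2.69 CPM in Ad-GFP, while Hes1 differs least.

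The promoters of Hey2 and Lfng are shown because, of the 7 core genes with an entry in the RefSeq promoter table (GRCm38.p6), these are the ones that hold the letters TGGGAA, the core recognised by RBPJ, on either strand in the 250 bases before the start site. Among all 32851 promoters, 21.6% hold it. Hes1, Hey1 and Heyl had no entry, so their promoters were not searched. The TEAD core GGAATG, bound by the partners of YAP and TAZ, was found in the promoters of Hey2 and Notch1, against 12.6% of all promoters, and the E-box CACGTG, a class of site bound by HEY and HES proteins, in that of Lfng, against 6.02%. In Hey2 (chr10:30842784-30843033, minus strand) 1 run of capitals holds both a TEAD match, on the reverse strand, first base 209 before the start, and an overlapping RBPJ match, on the reverse strand, first base 207 before the start. In Lfng (chr5:140607091-140607340, plus strand) the first run is an RBPJ match on the reverse strand, first base 135 before the start. The second run joins an E-box, first base 112, to an RBPJ match on the forward strand, first base 108. Sequences run 5′ to 3′ and end at the base before the start site, and capitals mark the matches.
Hey2: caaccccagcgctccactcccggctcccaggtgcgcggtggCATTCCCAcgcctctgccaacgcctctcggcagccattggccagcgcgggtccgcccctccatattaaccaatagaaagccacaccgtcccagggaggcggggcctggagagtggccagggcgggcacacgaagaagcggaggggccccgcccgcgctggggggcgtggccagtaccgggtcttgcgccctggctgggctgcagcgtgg
Lfng: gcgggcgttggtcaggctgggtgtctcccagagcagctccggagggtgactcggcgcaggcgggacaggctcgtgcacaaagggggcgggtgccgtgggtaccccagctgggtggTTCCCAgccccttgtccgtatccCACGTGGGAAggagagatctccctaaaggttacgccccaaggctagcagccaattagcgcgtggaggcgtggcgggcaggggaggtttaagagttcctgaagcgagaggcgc
A match is a run of letters, and binding was not measured.

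Jag1 (chromosome 2, 137081456 to 137116644, GRCm38, minus strand) encodes a transmembrane ligand that activates NOTCH receptors on adjacent cells. It had 153, 158 and 155 CPM in Ad-Cre-GFP, against 80.1, 82.6 and 90.3 CPM in Ad-GFP. Every Ad-Cre-GFP library lay far above every control, and Ad-GFP replicate 3 was the highest control. Jag1 rose 1.85-fold (log2 change 0.89 ± 0.04, SE, adjusted p = 9.40e-15). Jag2 (chromosome 12, 112907819 to 112929776, minus strand), a second ligand of the same class, went the other way. It had 20.3, 21.1 and 23.1 CPM in Ad-Cre-GFP, against 46.9, 51.5 and 50.8 CPM in Ad-GFP, a fall of 1.21 ± 0.05 on the log2 scale (adjusted p = 1.43e-14). Jag2 was the largest called fall of the core genes, and 9.92% of all tested genes had a larger change in either direction. The fall of Hey1, 1.14 ± 0.30 on the log2 scale, differed from that of Jag2 by less than the SE of Hey1.

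The make-up of the ligand pool was compared within each library, where no scaling between libraries enters. By counts per kb of exon, Jag1 made up 90.01%, 89.98% and 88.9% of Jag1 plus Jag2 in Ad-Cre-GFP, against 67.1%, 65.7% and 68.0% in Ad-GFP. The mean difference was 22.7 percentage points, beside SDs of 0.612 points in Ad-Cre-GFP and 1.15 points in Ad-GFP. An exact two-sided permutation test gave p = 0.1, the smallest that 3 against 3 libraries allow. Summed per kb, the ligands reached 29.8 ± 0.550 CPM per kb in Ad-Cre-GFP and 21.6 ± 1.16 CPM per kb in Ad-GFP (SD, n = 3).

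**Figure D2:**
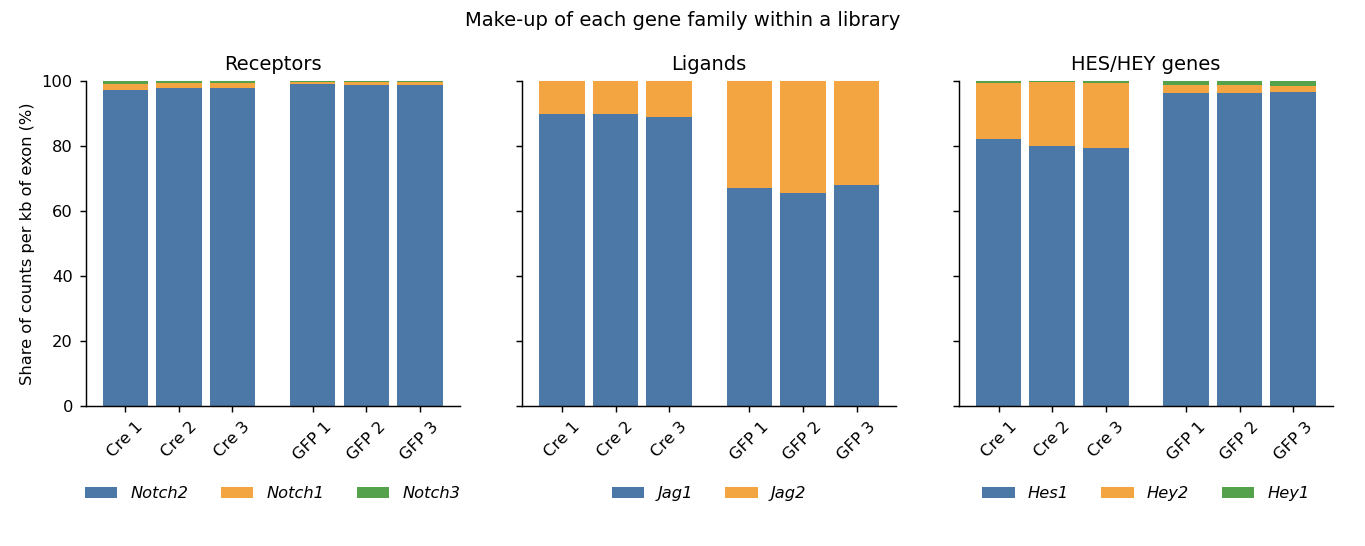
Share of counts per kb of exon taken by each gene within its family, 1 bar per library (Cre, Ad-Cre-GFP; GFP, Ad-GFP). Jag2 shrinks to 9.99% to 11.1% of the ligands in Ad-Cre-GFP, against 32.0% to 34.3% in Ad-GFP, and Hey2 takes 17.2% to 19.97% of the HES/HEY genes, against 1.99% to 2.58%, while Notch2 holds 97.3% or more of the receptors in each library.

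Notch2 (chromosome 3, 98013527 to 98150361, plus strand) was by far the most abundant receptor. It had 135, 136 and 135 CPM in Ad-Cre-GFP, against 188, 178 and 183 CPM in Ad-GFP, and fell by 0.43 ± 0.03 on the log2 scale (adjusted p = 4.56e-11). The Ad-Cre-GFP libraries were nearly identical in level and all lay below the controls. Per kb of exon, Notch2 made up 97.7% ± 0.298 of the 3 receptors in Ad-Cre-GFP and 98.9% ± 0.202 in Ad-GFP (SD, n = 3 each; exact two-sided permutation p = 0.1, the smallest possible). The summed level of the receptors was 12.9 ± 0.0606 CPM per kb in Ad-Cre-GFP and 17.2 ± 0.446 CPM per kb in Ad-GFP (SD, n = 3).

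Notch1 (chromosome 2, 26457903 to 26516663, minus strand), the receptor named in most work on the pathway, was low here, with 97, 79 and 79 counts in Ad-Cre-GFP, against 36, 65 and 36 counts in Ad-GFP. That is 3.32, 2.64 and 2.88 CPM in Ad-Cre-GFP, against 1.64, 2.54 and 1.91 CPM in Ad-GFP. The groups only just separate, since the second Ad-Cre-GFP library lies close to the second control. The 95% exact binomial intervals of single libraries ran from 2.06 to 3.99 CPM in Ad-Cre-GFP. In Ad-GFP they ran from 1.17 to 3.27 CPM, so the intervals overlap. An antisense gene, 0610009E02Rik, shares 7.5% of its exon bases and had 3 to 9 counts per library. The log2 change was 0.52 ± 0.17 (adjusted p = 0.0113), and the call did not survive the removal of Ad-Cre-GFP replicate 1 (adjusted p = 0.0527), the removal of Ad-GFP replicate 1 (adjusted p = 0.0840) or thinning of all libraries to the same depth (adjusted p = 0.0794).

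Notch3 (chromosome 17, 32120820 to 32166852, minus strand), a receptor known from smooth muscle and pericytes, had 26, 20 and 19 counts in Ad-Cre-GFP, against 8, 8 and 11 counts in Ad-GFP. In scaled units that is 0.889, 0.669 and 0.693 CPM in Ad-Cre-GFP, against 0.365, 0.313 and 0.583 CPM in Ad-GFP. All Ad-Cre-GFP libraries were higher, and the third control came close to them. The 95% exact binomial intervals of single libraries ran from 0.403 to 1.29 CPM in Ad-Cre-GFP and from 0.136 to 1.05 CPM in Ad-GFP, and so overlap at this depth. The log2 change was 0.87 ± 0.32 (adjusted p = 0.0208). DESeq2 (adjusted p = 0.0996) and thinned libraries (adjusted p = 0.0752) gave no call. Neither did the fits that left out Ad-Cre-GFP replicate 1 (adjusted p = 0.0845), Ad-GFP replicate 1 (adjusted p = 0.0734) or Ad-GFP replicate 2 (adjusted p = 0.114). Thinning, or leaving out replicate 1 of either group, removed both Notch1 and Notch3, so that 3 core genes were called higher. Notch4, the remaining mammalian receptor, had at most 6 counts in any library.

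Markers of other ovarian cell types, in some of which NOTCH signalling is prominent, also differed between the groups. Their calls stand beside 34.0% of all tested genes called higher and 35.8% lower. The 8 endothelial markers summed to 21.9 to 23.2 CPM in Ad-Cre-GFP and 8.45 to 9.97 CPM in Ad-GFP. Most of that sum was Ptprb and Flt1. The 3 that could be tested (Kdr, Flt1 and Ptprb) rose. Pecam1, too low to test, averaged 0.116 CPM in Ad-Cre-GFP and 0.200 CPM in Ad-GFP. Cdh5 and Tek, also too low, averaged 0.0345 and 0.196 CPM in Ad-Cre-GFP, against 0 and 0.0413 CPM in Ad-GFP. Tie1 and Emcn had 0 counts in every library. The 7 pericyte and smooth muscle markers summed to 23.3 to 26.1 CPM in Ad-Cre-GFP and 7.89 to 8.21 CPM in Ad-GFP, nearly all of it Mcam, and the 2 tested (Mcam and Cnn1) rose. Pdgfrb, another marker of this list, averaged 0.0226 CPM in Ad-Cre-GFP and was at 0 counts in all Ad-GFP libraries. The 7 granulosa markers summed to 320.1 to 332 CPM in Ad-Cre-GFP and 135 to 148 CPM in Ad-GFP, nearly all Inhbb, and 3 rose and 1 fell, while Fshr and Cyp19a1 had 0 counts throughout. The 5 stromal fibroblast markers summed to 271 to 291 CPM in Ad-Cre-GFP and 379.8 to 398 CPM in Ad-GFP, and the 4 tested fell. The 5 immune markers summed to 6.50 to 7.14 CPM in Ad-Cre-GFP and 11.1 to 13.4 CPM in Ad-GFP, and 1 of 2 tested (Cd14) fell. The part of such cells in the changes of the NOTCH genes was not tested, and in bulk RNA fewer cells of a type and less RNA per cell cannot be told apart.

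Lfng (chromosome 5, 140607320 to 140615545, plus strand) encodes Lunatic fringe, which extends the fucose on NOTCH receptors and in other systems favours DLL over JAG ligands. It had 5.81, 6.56 and 6.50 CPM in Ad-Cre-GFP, against 4.92, 4.93 and 4.93 CPM in Ad-GFP. The rise was small (log2 change 0.35 ± 0.10, adjusted p = 0.00515), about the size of the median absolute change of all genes tested. The controls were closer to each other than their counting error, whose intervals spanned about 4.02 to 6.10 CPM. The DLL ligands themselves were close to absent from these libraries, with at most 4 counts of Dll1, Dll3 or Dll4 in any of them.

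Hey2 (chromosome 10, 30832359 to 30842801, minus strand) encodes a basic helix-loop-helix repressor that acts downstream of NOTCH and is known from heart and vessel development. It had 576, 689 and 622 counts in Ad-Cre-GFP, against 59, 65 and 42 counts in Ad-GFP. In scaled units it had 19.7, 23.1 and 22.7 CPM in Ad-Cre-GFP, against 2.69, 2.54 and 2.23 CPM in Ad-GFP. The lowest Ad-Cre-GFP library was several times the highest control. Hey2 rose 8.71-fold (log2 change 3.12 ± 0.10, adjusted p = 4.77e-17), the largest change of the core genes, and 1.80% of all tested genes changed more in either direction. Over 15 other settings its log2 change stayed between 3.06 and 3.20 and was called in each.

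Its relative Hey1 (chromosome 3, 8663359 to 8667256, minus strand), also a NOTCH-responsive repressor, had 13, 11 and 12 counts in Ad-Cre-GFP, against 18, 20 and 23 counts in Ad-GFP. That is 0.445, 0.368 and 0.438 CPM in Ad-Cre-GFP, against 0.820, 0.783 and 1.22 CPM in Ad-GFP. The third control library is the highest of the 6 libraries, and the Ad-Cre-GFP libraries sit close together below all controls. The 95% exact binomial intervals of single libraries ran from 0.181 to 0.756 CPM in Ad-Cre-GFP. In Ad-GFP they ran from 0.482 to 1.85 CPM, so the intervals overlap at this depth. Hey1 fell by 1.14 ± 0.30 on the log2 scale (adjusted p = 0.00194), and stayed called in each of the 14 other settings that tested it, with the fall at its smallest, 0.94, without Ad-GFP replicate 3 (adjusted p = 0.0178).

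Hes1 (chromosome 16, 30064384 to 30067796, plus strand), the most widely used readout of NOTCH signalling, was abundant and nearly level between the groups. It had 41.9, 42.1 and 40.1 CPM in Ad-Cre-GFP, against 44.5, 42.8 and 47.9 CPM in Ad-GFP. The fall of 0.12 ± 0.05 on the log2 scale passed the test (adjusted p = 0.0293), and 80.1% of tested genes had a larger change. The call was lost in 6 of 15 settings, with adjusted p of 0.124 in DESeq2, 0.0515 with DESeq2 size factors and 0.0783 with no count filter. Leaving out Ad-Cre-GFP replicate 1 gave an adjusted p of 0.0679, Ad-Cre-GFP replicate 3 one of 0.180 and Ad-GFP replicate 3 one of 0.145. The sign was negative in all 15.

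Heyl (chromosome 4, 123233556 to 123249875, plus strand), the third HEY gene, had 0 counts in all 6 libraries, which allows a level of up to 0.0990 to 0.161 CPM per library (3 counts; counting error only). Hes5, another HES gene often used as a NOTCH readout, also had 0 counts throughout. Per kb of exon, Hey2 made up 17.2%, 19.5% and 19.97% of the summed HES/HEY genes in Ad-Cre-GFP, against 2.58%, 2.54% and 1.99% in Ad-GFP. The difference of 16.5 points far exceeds the SD of 1.498 points in Ad-Cre-GFP (exact two-sided permutation p = 0.1, the smallest possible). Hes1 kept the largest share, 80.6% ± 1.48 in Ad-Cre-GFP and 96.4% ± 0.0855 in Ad-GFP. The summed level of these genes was 25.2 ± 0.537 CPM per kb in Ad-Cre-GFP and 22.9 ± 1.30 CPM per kb in Ad-GFP (SD, n = 3).

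**Figure D3:**
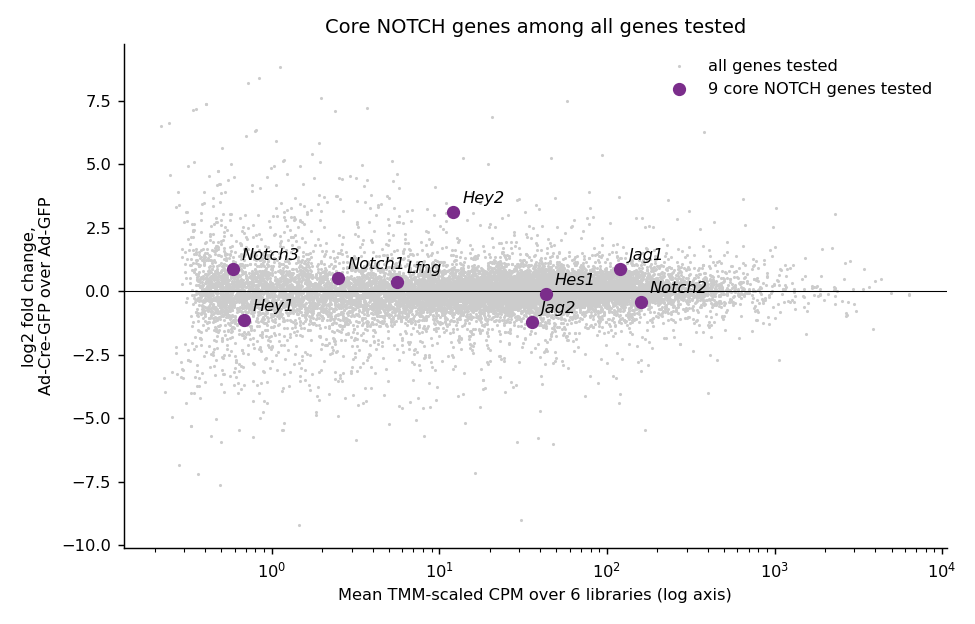
log2 fold change (Ad-Cre-GFP over Ad-GFP) against mean TMM-scaled CPM (log axis) of all 14811 tested genes (grey) and the 9 core NOTCH genes tested (purple). Hey2 stands clear of the bulk of the genes at 3.12, and Jag1 and Jag2 lie on opposite sides of 0 at 0.89 and -1.21, while Hes1 and Lfng sit inside it.

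Ordered by level per kb of exon, the genes ran in Ad-Cre-GFP from Jag1 (26.7 ± 0.465 CPM per kb) through Hes1 (20.3 ± 0.541), Notch2 (12.6 ± 0.0664), Hey2 (4.75 ± 0.401), Jag2 (3.09 ± 0.209) and Lfng (2.51 ± 0.165) to Notch1 (0.207), Hey1 (0.128) and Notch3 (0.0928). In Ad-GFP the order was Hes1 (22.1 ± 1.27 CPM per kb), Notch2 (16.99 ± 0.475), Jag1 (14.5 ± 0.916), Jag2 (7.15 ± 0.354), Lfng (1.97 ± 0.00159), Hey2 (0.541 ± 0.0515), Hey1 (0.288), Notch1 (0.143) and Notch3 (0.0520). Jag1 thus led the order in Ad-Cre-GFP and came behind Hes1 and Notch2 in Ad-GFP, and Hey2 stood above Jag2 and Lfng in Ad-Cre-GFP and below both in Ad-GFP. Neighbours in either order did not overlap between libraries, but the counting intervals of single libraries, per kb, did for some. In Ad-Cre-GFP these were Jag2 and Lfng, Notch1 and Hey1, and Hey1 and Notch3. In Ad-GFP they were Notch2 and Jag1, Hey2 and Hey1, Hey1 and Notch1, and Notch1 and Notch3. The top of the Ad-Cre-GFP order depends on the length used: divided by the longest transcript in place of all exon bases, Hes1 (28.2 CPM per kb) came before Jag1 (27.7 CPM per kb).

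The other genes of the pathway were read by role. Of 58 listed, 46 could be tested, and 12 rose, 27 fell and 7 were not called, beside 34.0% of all tested genes higher and 35.8% lower. Their median log2 change was -0.18, against -0.01 for all genes.

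Most genes of the machinery that cuts the receptor fell. Of 10 genes, 9 fell and none rose, beside 35.8% of all tested genes called lower and 34.0% higher. The median log2 change of the 10 was -0.54. The same counts were obtained under each of 15 other settings, the removal of Ad-GFP replicate 3 included. Adam10, the protease that makes the ligand-triggered cut, had 475, 489.6 and 481 CPM in Ad-Cre-GFP, against 1039, 1007 and 1136 CPM in Ad-GFP, a fall of 1.14 ± 0.04 on the log2 scale (adjusted p = 1.43e-15). All controls lay well above all Ad-Cre-GFP libraries. Furin, which cuts the receptor on its way to the surface, fell by 0.94 ± 0.03 (adjusted p = 2.22e-16), and Adam17 by 0.57 ± 0.04. Among the gamma-secretase subunits, Psen2 fell by 0.64 ± 0.08 and the nicastrin gene Ncstn by 0.31 ± 0.03. Aph1b and Aph1c fell too, but their transcripts are close copies and their counts are uncertain. Adam17 and Ncstn overlap Iah1 and Copa, and reads of the shared bases cannot be assigned where strand was not used.

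Of the 4 ubiquitin ligases that drive uptake of the bound ligand, 3 fell, beside 35.8% of all tested genes called lower. Neurl1a averaged 38.9 ± 1.58 CPM in Ad-Cre-GFP and 89.5 ± 1.85 CPM in Ad-GFP (SD, n = 3; log2 change -1.20 ± 0.04, adjusted p = 7.00e-17), and Mib2 averaged 11.6 ± 0.260 CPM in Ad-Cre-GFP and 21.6 ± 0.942 CPM in Ad-GFP. Neurl1b was not called (0.11 ± 0.08, adjusted p = 0.275). Of 4 tested genes of receptor glycosylation, 3 rose, by 0.09 to 0.20 on the log2 scale, beside 34.0% of all tested genes called higher. Pofut1, which adds the first fucose, rose by 0.17 ± 0.04 (adjusted p = 0.00115). The call of Eogt, another of the 3, was lost in 6 of 15 settings.

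Among the other pathway genes Dlk2, a delta-like protein without the DSL domain of the activating ligands, changed about as much as Hey2. It had 10.7, 13.0 and 13.6 CPM in Ad-Cre-GFP, against 1.73, 1.13 and 1.22 CPM in Ad-GFP, and rose by 3.19 ± 0.15 on the log2 scale (adjusted p = 8.66e-14). The lowest Ad-Cre-GFP library was several times the highest control. The rises of Dlk2 and Hey2 differed by less than the SE of either, and their order turned when Ad-GFP replicate 2 was left out (3.05 for Dlk2 and 3.14 for Hey2).

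In the nuclear complex 2 genes rose, 3 fell and 2 were not called, beside 69.8% of all tested genes called. Rbpj had 41.4, 41.3 and 36.9 CPM in Ad-Cre-GFP, against 25.7, 23.1 and 25.3 CPM in Ad-GFP, with no overlap (log2 change 0.69 ± 0.06, adjusted p = 5.27e-10). Annotated Rbpj pseudogenes reach 99.7% identity to its transcripts, so its count is uncertain. Maml3, a Mastermind coactivator, fell by 1.37 ± 0.16 at a low level (1.48 ± 0.184 CPM in Ad-Cre-GFP and 3.82 ± 0.357 CPM in Ad-GFP), and Maml2 fell by 0.33 ± 0.05, while Maml1 was not called (0.07 ± 0.04, adjusted p = 0.131; 0.0381 when Ad-Cre-GFP replicate 1 was left out).

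Of 11 corepressors, 3 rose and 7 fell, beside 34.0% of all tested genes called higher and 35.8% lower. The Groucho-type TLE proteins, which HES proteins recruit, split: Tle2 (2.33, 2.34 and 2.99 CPM in Ad-Cre-GFP, against 11.4, 10.1 and 10.6 CPM in Ad-GFP) fell by 2.07 ± 0.11 and Tle3 by 0.95 ± 0.03 (adjusted p = 3.72e-17), and Tle4 rose by 0.62 ± 0.05. Tle1 was not called, with a log2 change near 0 whose sign turned with the scaling. Among 8 tested genes that restrain the receptor or turn it over, 3 rose and 5 fell (1 and 4 with DESeq2). The same shares of all tested genes apply. Dtx3, a Deltex-type ubiquitin ligase, fell by 0.71 ± 0.04 (adjusted p = 2.24e-12) and its relative Dtx4 rose by 0.73 ± 0.06. Nrarp, a feedback inhibitor and direct NOTCH target, had 20, 25 and 12 counts in Ad-Cre-GFP, against 7, 10 and 7 counts in Ad-GFP, and its call (0.86 ± 0.35, adjusted p = 0.0336) was lost with DESeq2 (adjusted p = 0.130) and in 5 of 6 fits that left out 1 library, all but that of Ad-Cre-GFP replicate 3 (adjusted p of 0.0597 to 0.161). The antisense gene Gm38287 shares 79.4% of the Nrarp exon bases and had 0 counts in every library. Reads of the shared bases cannot be assigned where strand was not used, so the Nrarp count is uncertain. The small changes of Fbxw7, Dtx2 and Itch in this group also lost their calls in some settings. Hes6, which in other cells antagonises HES1, was not called (-0.08 ± 0.05, adjusted p = 0.118).

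**Figure D4:**
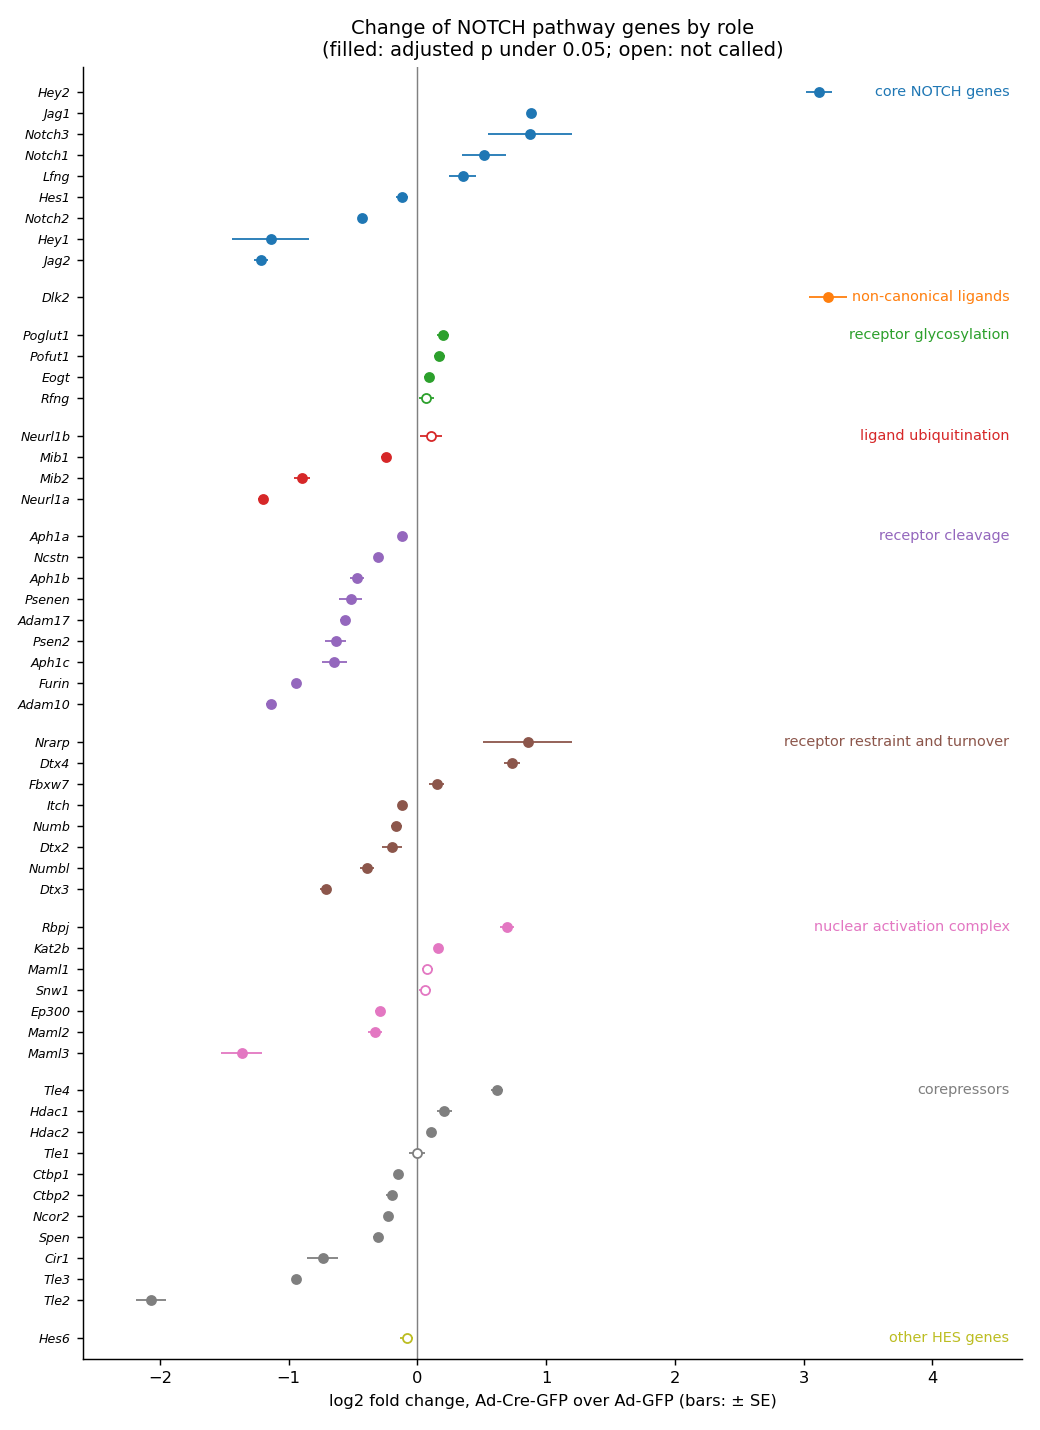
log2 fold change (Ad-Cre-GFP over Ad-GFP, ± SE) of the 9 tested core NOTCH genes and the tested genes of the wider pathway that are reported here, grouped by role; filled points were called and open points were not. The receptor cleavage genes shown lie left of 0, while the core genes spread on both sides.

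The genes whose centred log2 levels over the 6 libraries lay nearest to those of Hey2 were Slc1a6 (log2 change 3.24 ± 0.11), Pdlim2 (3.08 ± 0.09) and Igf2bp1 (2.99 ± 0.08), at distances of 0.172, 0.192 and 0.215 log2 units among 9790 candidates. Nearest to Jag2 were Cystm1 (-1.19 ± 0.03), Ckmt1 (-1.25 ± 0.07) and Fkbp14 (-1.30 ± 0.05), at distances of 0.106, 0.124 and 0.131. With 2 groups of 3 libraries, such likeness rests mainly on a difference between the groups of the same size.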

How the data were processed

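The authors deposited raw counts for each gene as whole numbers, in columns that, per the file headers, are named for 6 BAM files. In the submitters' processing notes GRCm38 is given as the build, with the tools kallisto (0.46.2) and sleuth (0.30.1). Which program aligned and counted the reads, with which annotation, and whether strand was used, is not given in the sources used here. RNA was column-purified and poly(A)-enriched, per the labels' protocols.

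Symbols, coordinates and exon lengths were looked up by unversioned gene ID in GENCODE M21 (GRCm38), which matched 48058 of 48440 IDs. Genes passing filterByExpr (14811) were TMM-scaled and tested with edgeR 4.0.16 (quasi-likelihood, robust) in R 4.3.3 without a replicate block, with Benjamini-Hochberg adjustment over all of them. Log2 changes set Ad-Cre-GFP over its Ad-GFP control; SE is the log2 change over the square root of F. Alternatives were other scalings and filters, DESeq2 1.42.0, limma-voom (limma 3.58.1), no robust dispersion, a replicate block and each library left out. Thinning to the smallest total was added after seeing the data. The test was tested on simulated data in which few genes changed, which does not check it where most genes are called, as here. Near-identical transcripts were searched with minimap2 2.31 (at least 200 bases, 90% identity).

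The members and lists were chosen with earlier results of these data known. All core genes were named; so were wider genes called with an absolute log2 change of at least 1, the most significant of each role, and the 3 genes nearest to the largest rise and fall (mean of at least 5 CPM, pseudocount 0.5); other wider genes were chosen after their values were seen. No replicate pair agreed within sampling noise (chi-square per gene 2.04 to 4.27). The labels do not say that replicates were separate cultures, so the p-values reflect sample-to-sample spread that may be only technical. Intervals cover counting error only. Notch1, Notch2 and Notch3 share 2.91% to 7.5% of exon bases with overlapping noncoding genes that had at most 10 counts each. One gene of the wider pathway is counted but not reported by name here.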

Additional observations from a re-analysis of the deposited data

How the results depend on the processing

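The directions of all 9 tested core genes were the same in every setting run. The calls of Hey2, Jag1, Jag2, Notch2, Lfng and Hey1 were kept wherever they were tested; Hey1 and Notch3 were not tested at a mean of at least 1 CPM. Core genes called higher numbered 5, and 3 in libraries thinned to the smallest total, 4 with DESeq2 and 4 at a mean of at least 1 CPM. Those called lower numbered 4, and 3 with DESeq2, DESeq2 size factors, no filter or a mean of at least 1 CPM. Leaving out each library gave 3 to 5 core genes higher and 3 to 4 lower, 9 to 11 wider pathway genes higher and 26 to 27 lower, and 9932 to 10124 genes called in all. It gave log2 changes of -2.14 to -2.06 for Lats1 and -0.41 to -0.36 for Lats2. It gave share differences (Ad-Cre-GFP minus Ad-GFP) of 22.1 to 23.2 points for Jag1, -1.32 to -1.03 points for Notch2 and 15.9 to 17.3 points for Hey2. The Jag1 share differed by 24.99 points without division by length and by 26.2 points with the longest transcript. With the longest transcript the Notch2 share differed by -1.53 points and the Hey2 share by 20.1 points; without division by length the Hey2 share differed by 29.1 points. These moves follow from the length used. Tle1 (log2 change -0.00097) changed sign to 0.012 with DESeq2 size factors, 0.016 with no filter, 0.0068 at a mean of at least 1 CPM, 0.013 with DESeq2 and 0.0029 with the replicate block. Leaving out 1 library gave it values of -0.043 to 0.052, above 0 for 0.022, 0.037 and 0.052. Whether libraries of the same number were paired is not known. Same-numbered deviations correlated at 0.0488, 0.0510 and 0.00502. Replicates 1 and 2 of each group correlated best with their own number, and replicate 3 of neither group did. With the replicate block 10478 genes, 5 core genes higher and 4 lower, and 12 and 27 wider genes were called, with Lats1 at -2.10 and Lats2 at -0.39, and the exact paired p of the shares was 0.25, the smallest that 3 pairs allow. Depth limits Notch1, Notch3, Hey1 and Nrarp, the Nrarp count is also uncertain because of its overlap with Gm38287, and Heyl could not be tested.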
